A study of Mus musculus with 12 samples.

Results

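The 4 genes described here carry glucose into the cell and through glycolysis, and they were taken by name from the deposited table: Slc2a1, Hk2, Pfkfb3 and Tpi1. All 4 were found among the 780 genes measured. Transcripts were counted in total RNA of mouse ileum, the last stretch of the small intestine, with the Mouse Tumor Signaling 360 panel of the nCounter platform, in which coded probes are counted without amplification. Each of 4 groups is represented by 3 of its 8 mice. Control mice were dosed orally with DMSO, 1 time a day for 28 days. STP1002 was dosed orally on the same schedule, at 5 mg/kg in one group and 10 mg/kg in another. The G007-LK mice were injected intraperitoneally with 30 mg/kg, 2 times a day for 28 days. G007-LK is an inhibitor of tankyrases, enzymes of the Wnt pathway, and STP1002 has been described as one. Strain, sex and age are not in the labels. Route and schedule changed along with the compound, so for G007-LK these cannot be told apart from the compound.

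Glycolysis splits glucose into pyruvate in the cytosol and yields ATP without oxygen. Slc2a1 encodes GLUT1, a carrier that lets glucose pass down its gradient into many cell types. Hk2 encodes hexokinase 2, which traps glucose by phosphorylating it. Pfkfb3 encodes the enzyme that makes the strongest activator of phosphofructokinase, the main control point of the pathway. Tpi1 encodes triosephosphate isomerase, which converts one triose into the other so that both can be used. In the small intestine, dietary sugar enters absorptive cells mainly by other carriers. SLC2A1, HK2 and PFKFB3 are textbook targets of the hypoxia-inducible factor HIF-1, whose core recognition letters include ACGTG.

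The windows of 250 bases before the RefSeq start of each member (build GRCm38.p6) are shown because 3 of the 4 members hold the letters ACGTG there. The windows are chr4:119108495-119108744 on the plus strand for Slc2a1, chr6:82774455-82774704 on the minus strand for Hk2 and chr6:124814159-124814408 on the minus strand for Tpi1. Pfkfb3 has 2 listed starts on the minus strand, with windows chr2:11553930-11554179 and chr2:11502091-11502340. Each is written 5′ to 3′ in the direction of the gene. Capitals mark ACGTG, or CACGT where the motif lies on the other strand.
Slc2a1: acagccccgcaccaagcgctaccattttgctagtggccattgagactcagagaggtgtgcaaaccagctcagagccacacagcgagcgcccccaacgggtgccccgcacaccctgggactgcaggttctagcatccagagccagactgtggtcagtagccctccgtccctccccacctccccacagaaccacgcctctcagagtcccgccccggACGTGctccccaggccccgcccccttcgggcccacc
Hk2: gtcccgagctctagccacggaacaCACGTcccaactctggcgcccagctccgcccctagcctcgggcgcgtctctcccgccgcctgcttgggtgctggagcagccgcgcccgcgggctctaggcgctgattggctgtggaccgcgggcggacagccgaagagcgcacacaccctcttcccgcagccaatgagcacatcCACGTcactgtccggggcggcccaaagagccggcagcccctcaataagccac
Pfkfb3 start 1: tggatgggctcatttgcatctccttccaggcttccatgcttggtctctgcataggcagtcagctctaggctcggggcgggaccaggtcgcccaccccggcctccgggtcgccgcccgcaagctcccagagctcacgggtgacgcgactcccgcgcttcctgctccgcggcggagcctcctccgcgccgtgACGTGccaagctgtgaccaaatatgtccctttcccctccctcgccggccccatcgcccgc
Pfkfb3 start 2: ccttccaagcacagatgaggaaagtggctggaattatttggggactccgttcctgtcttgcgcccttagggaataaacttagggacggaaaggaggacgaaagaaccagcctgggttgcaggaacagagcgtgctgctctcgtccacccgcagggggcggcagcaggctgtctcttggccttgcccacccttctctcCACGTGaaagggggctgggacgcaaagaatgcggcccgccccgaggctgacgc
Tpi1: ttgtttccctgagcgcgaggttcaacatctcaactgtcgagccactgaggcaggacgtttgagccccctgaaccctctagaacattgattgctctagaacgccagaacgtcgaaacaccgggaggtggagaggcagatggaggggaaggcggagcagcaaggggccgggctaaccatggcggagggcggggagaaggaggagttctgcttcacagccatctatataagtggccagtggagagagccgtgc
In Slc2a1 the motif began 36 bases before the start. Hk2 held it 2 times, both on the other strand, with first bases at 226 and 52 bases before the start. Pfkfb3 held it at 60 bases before its first listed start, and before its second start a palindrome gave overlapping matches on both strands at 53 and 52 bases. The Tpi1 window held none. The motif is common: at least 1 window held it in 24.3% of the 577 panel genes with a window in the table, and in 18.5% of 27025 genes in all. Among the 7 other glucose pathway genes described below, 4 held it. The match describes letters and shows no binding.

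Values below are the authors' normalized signal on a linear scale, in arbitrary units that follow reporter counts. In each library 98.7% to 100% of the gene values were whole multiples of 1 step within a tolerance of 0.0051, from which the number of reporters behind each member's value was estimated. The sum of these recovered counts ran from 31901 to 508829 over the libraries, the deepest being G007-LK replicate 1 and control replicate 1. Depth here means this sum. The positive control probes did not follow it. Their geometric mean ran from 562 to 1131 and was 637 in G007-LK replicate 1 and 784 in control replicate 1. Why the sums differ was not tested. A library's background was taken as 2 SD above the mean of the 8 negative probes. On the signal scale it ranged from 4.33 to 40.4. Of the 48 member values, 47 lay above it. The exception was Hk2 in STP1002 10 mg/kg replicate 2, at 19.2 against a background of 34.0. The median log2 difference of all 780 genes from control was 0.12 for STP1002 at 5 mg/kg, 0.69 at 10 mg/kg and -0.09 for G007-LK. At the 10 mg/kg dose 606 of the 780 genes were higher than in control mice and 174 lower. The size of this shift depended on single libraries. The median was 0.37 without control replicate 1, 0.41 without STP1002 10 mg/kg replicate 2 and 0.95 without replicate 1 of that group. The members are therefore also given after median-ratio rescaling, which sets each library to the typical gene. In whole tissue, fewer cells of a type and less RNA per cell cannot be told apart. With limma fitted to the 4 group means, no member passed in any of the 6 comparisons between groups. With a replicate block Hk2 and Tpi1 passed for G007-LK against STP1002 10 mg/kg, and a few other alternatives gave calls, named beside the results or in the closing section. The statements below on order and overlap describe the libraries.

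Slc2a1 was higher in each of the 9 treated mice than in any of the 3 control mice. Its signal was 86.3, 78.1 and 86.1 in control replicates 1 to 3, a narrow range. With STP1002 at 5 mg/kg it was 102, 90.0 and 149. At 10 mg/kg it was 109, 192 and 134, and with G007-LK 280, 161 and 134. The group means stood in the order control (83.5 ± 4.68, SD, n = 3), STP1002 5 mg/kg (114 ± 31.1, n = 3), STP1002 10 mg/kg (145 ± 42.6, n = 3) and G007-LK (192 ± 77.9, n = 3). The control and 5 mg/kg ranges did not overlap, while the other neighbours in this order did. The depth behind the control values was uneven: 196 reporters were counted in control replicate 1, 29 in replicate 2 and 22 in replicate 3. Counting error alone gives a 95% Poisson interval of 54.0 to 130 for the signal in control replicate 3, which reaches into the range of the STP1002 groups.

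Over the panel, 5 genes (0.641%) were higher in all 9 treated mice than in all 3 controls, and 2 (0.256%) were lower in all. This pattern was noticed after the values were seen. The other 4 higher genes, named for that reason, were Cd274, Ptpn6, Syk and Tnfaip3. After median-ratio rescaling 4 genes (0.513%) showed it and Slc2a1 was not among them: control replicate 1 then stood at 149, above 8 of the 9 treated mice, and replicates 2 and 3 at 71.3 and 78.0. The separation of Slc2a1 from control thus depended on the scale. Its loss after rescaling rested on control replicate 1, since the other 2 controls stayed below all 9 treated mice.

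**Figure D1:**
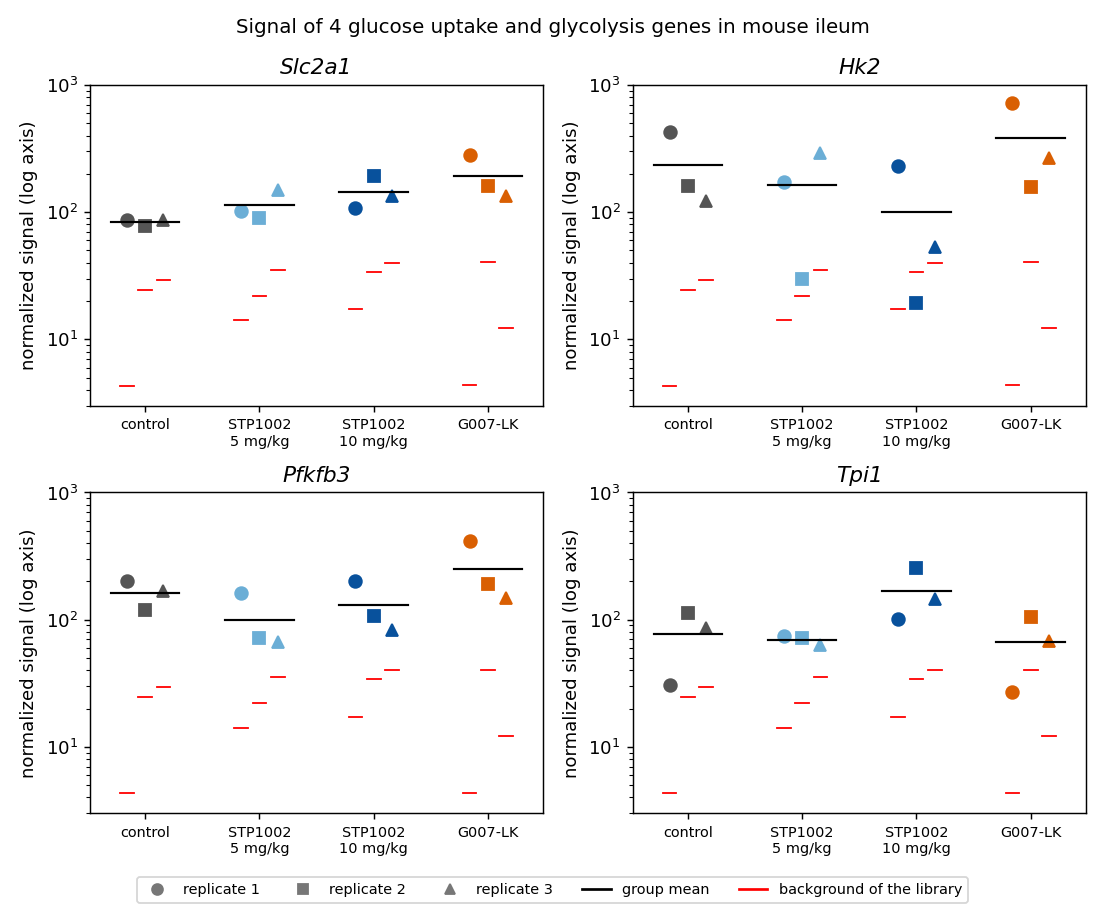
Normalized signal (log axis) of Slc2a1, Hk2, Pfkfb3 and Tpi1 in the 12 ileum libraries, by group; points are mice, black lines are arithmetic group means and red ticks are the background of each library. Slc2a1 lies above the control range in all 9 treated mice, while for the other 3 genes mice of a group are spread widely and Hk2 falls below background in 1 library.

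Hk2 had the largest error of the 4 members in the fit, and its values were spread widely within each group. It stood at 427, 162 and 121 in control replicates 1 to 3. With STP1002 at 5 mg/kg the 3 mice gave 172, 30.0 and 290, and at 10 mg/kg they gave 230, 19.2 and 53.2. With G007-LK the signal was 719, 158 and 265. Means were 101 ± 113 at 10 mg/kg, 164 ± 130 at 5 mg/kg, 237 ± 166 in control mice and 381 ± 298 with G007-LK (SD, n = 3 each), and every pair of neighbours overlapped. The lowest value, in STP1002 10 mg/kg replicate 2, rests on 10 reporters, a count whose 95% Poisson interval ends at 18.4, and the highest on 2379. The other low values, 30.0 and 53.2, rest on 18 and 21 reporters.

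Pfkfb3 had its lowest mean with STP1002 at 5 mg/kg and its highest with G007-LK. Signal was 203, 119 and 168 in control mice. In the 5 mg/kg group it was 161, 71.7 and 67.0, and in the 10 mg/kg group 202, 107 and 83.7. With G007-LK it was 413, 192 and 148. The order of means was 5 mg/kg (99.8 ± 52.9), 10 mg/kg (131 ± 62.8), control (163 ± 42.5) and G007-LK (251 ± 142; SD, n = 3 each), and all neighbours overlapped. In all 3 treated groups replicate 1 was the highest, as it was among the controls.

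Tpi1 was the one member with its highest mean at 10 mg/kg of STP1002. It read 30.8, 113 and 86.1 in control replicates 1 to 3. At 5 mg/kg the mice lay close together, at 74.0, 71.7 and 63.2. At 10 mg/kg the values were 100.5, 255 and 144, and with G007-LK 26.9, 105 and 68.1. Means were 66.6 ± 39.0 with G007-LK, 69.6 ± 5.64 at 5 mg/kg, 76.7 ± 42.0 in control mice and 167 ± 79.7 at 10 mg/kg (SD, n = 3 each). The ranges of the 2 STP1002 doses did not overlap, and those of neighbours in this order did. The lowest values fell in G007-LK replicate 1 and control replicate 1, the deepest libraries, where they still rest on 89 and 70 reporters.

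Against control, STP1002 at 5 mg/kg gave no call in the panel. Limma, fitted to log2(signal + 1) of all 780 genes, called 0 genes (0%) at an adjusted p under 0.05, with 18 (2.31%) at an unadjusted p under 0.05. The log2 fold change of Slc2a1 was 0.41 ± 0.47 (SE; 95% interval -0.58 to 1.40), of Hk2 -0.82 ± 0.89, of Pfkfb3 -0.79 ± 0.54 and of Tpi1 0.05 ± 0.65. Limma's adjusted p was 0.998 for each. Hk2 and Pfkfb3 were among the genes with the lowest values, as only 1.92% and 2.44% of the panel lay below them. Groups without overlap made up 2.82% of the panel in the direction of Slc2a1, the 1 member so placed. Without STP1002 5 mg/kg replicate 2, Hk2 turned to 0.14.

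STP1002 at 10 mg/kg likewise gave 0 calls (0%) against control, with 36 genes (4.62%) at an unadjusted p under 0.05. Hk2 was lower by a log2 fold change of -1.69 ± 0.89 (SE; 95% interval -3.58 to 0.20; limma adjusted p = 0.464), a value below which 0.385% of the panel lay. After median-ratio rescaling it was -2.36 ± 1.18. Slc2a1 had 0.75 ± 0.47 (limma adjusted p = 0.464), which is close to the panel's median of 0.69, and rescaling left 0.05. Tpi1 had 1.19 ± 0.65 (adjusted p = 0.464) and 0.50 after rescaling, and Pfkfb3 -0.38 ± 0.54 (adjusted p = 0.643) and -1.08. The 3 treated mice lay above the 3 controls for 9.36% of the panel, Slc2a1 included, on the deposited scale. With array weights, whose estimate did not converge and which called 283 genes, all 4 members passed here, Hk2 at -1.40 and Tpi1 at 0.66. The value for Hk2 was -0.87 without STP1002 10 mg/kg replicate 2 and -2.63 without replicate 1.

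With G007-LK, limma called 27 of 780 genes (3.46%) against control, 18 higher and 9 lower (8 and 6 after median-ratio rescaling), and none of the members was among them. The replicate block raised the count to 63, again without a member. Slc2a1 came nearest: its log2 fold change was 1.12 ± 0.47 (SE; 95% interval 0.13 to 2.11), or 2.17-fold, with an unadjusted p of 0.0293 and an adjusted p of 0.282 by limma. An unadjusted p under 0.05 was reached by 103 genes (13.2%), and 10.1% of the panel was higher in all 3 treated mice than in all 3 controls, as Slc2a1 was. Hk2 had 0.61 ± 0.89 (adjusted p = 0.846), Pfkfb3 0.51 ± 0.54 (adjusted p = 0.805) and Tpi1 -0.21 ± 0.65 (adjusted p = 0.948). Median-ratio rescaling kept Slc2a1 at 1.14 ± 0.50, with an overlap of the ranges through control replicate 1. The values of Hk2 and Pfkfb3 depended on replicate 1 of both groups. Without G007-LK replicate 1 they were 0.01 and 0.08, and without control replicate 1 they were 1.15 and 0.68. Without both of these libraries, the 2 deepest, they were 0.55 and 0.25. The sign of Tpi1 turned without G007-LK replicate 1 (0.33) and without control replicate 2 (0.16).

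Summed signals of cell type markers differed between the groups as well. Of 20 myeloid markers 13 were measured, and their summed signal ranged from 796 to 1081 in control mice and from 5430 to 10842 with G007-LK. Of 18 epithelial markers 5 were measured (Epcam, Cdh1, Spint2, Erbb3 and Sfn). They were above background in all 12 libraries, and their sum ranged from 4104 to 10365 in control mice and from 460 to 1620 with G007-LK. In the STP1002 groups the epithelial sum was 2111 to 15119 at 5 mg/kg and 3545 to 7376 at 10 mg/kg, and the myeloid sum 1027 to 1406 and 1294 to 2254. Of 14 fibroblast and matrix markers 6 were measured, and their sum ranged from 835 to 1296 in control mice and from 2027 to 3063 with G007-LK, ranges that overlapped after median-ratio rescaling. Of 10 B cell markers 5 were measured, with sums of 89.1 to 403 in control mice, 1004 to 1136 with STP1002 at 10 mg/kg and 89.2 to 463 with G007-LK. The sums of T and NK cell, endothelial and smooth muscle markers overlapped between control mice and G007-LK. The part of these cell types in the levels of the glucose genes was not tested.

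The 3 treatments were also set against one another. Between the STP1002 doses limma called 0 genes (0%), with 18 (2.31%) at an unadjusted p under 0.05. Tpi1 was higher at 10 than at 5 mg/kg in 3 of 3 mice, by 1.14 ± 0.65 on the log2 scale (limma adjusted p = 0.654), or 0.57 after rescaling, and 8.72% of the panel was separated in that direction. G007-LK against STP1002 at 5 mg/kg gave 22 calls (2.82%), with 99 genes (12.7%) at an unadjusted p under 0.05. Pfkfb3 had the smallest p of the members there, with 1.30 ± 0.54 (SE; 95% interval 0.17 to 2.43; unadjusted p = 0.027, limma adjusted p = 0.285), while its ranges overlapped. Slc2a1 had 0.71 ± 0.47, Hk2 1.43 ± 0.89 and Tpi1 -0.26 ± 0.65.

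G007-LK against STP1002 at 10 mg/kg gave the widest differences of Hk2 and Tpi1 among the 6 comparisons. Limma called 24 genes (3.08%), with 194 (24.9%) at an unadjusted p under 0.05. Hk2 was higher with G007-LK by 2.30 ± 0.89 on the log2 scale (95% interval 0.42 to 4.19; limma adjusted p = 0.175). Tpi1 went the other way, by -1.40 ± 0.65 (95% interval -2.79 to -0.02; limma adjusted p = 0.2), against a panel median of -0.74. Pfkfb3 had 0.89 ± 0.54 and Slc2a1 0.37 ± 0.47, and neither passed. Ranges overlapped for all 4 members. After median-ratio rescaling Slc2a1 was higher in all 3 G007-LK mice, as was 10.9% of the panel, and Tpi1 lower in all 3, as was 11.8%. Rescaling also changed the split of all calls, from 16 higher and 8 lower to 15 and 1. Blocking on replicate number raised the calls by limma to 260 (51 higher, 209 lower), and both Hk2 (adjusted p = 0.00572) and Tpi1 (adjusted p = 0.0298) passed. The replicate numbers come from the sample titles, and shared deviations were not particular to equal numbers. STP1002 10 mg/kg replicate 3 had an r of 0.248 with G007-LK replicate 2 and 0.144 with G007-LK replicate 3 over the panel. Without the 2 deepest libraries Hk2 also passed, at 1.70 on the log2 scale (limma adjusted p = 0.0392). A moderated F test of any difference among the 4 groups called 21 genes (2.69%) and gave the members an adjusted p of 0.527 for Hk2 and 0.537 for the other 3.

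**Figure D2:**
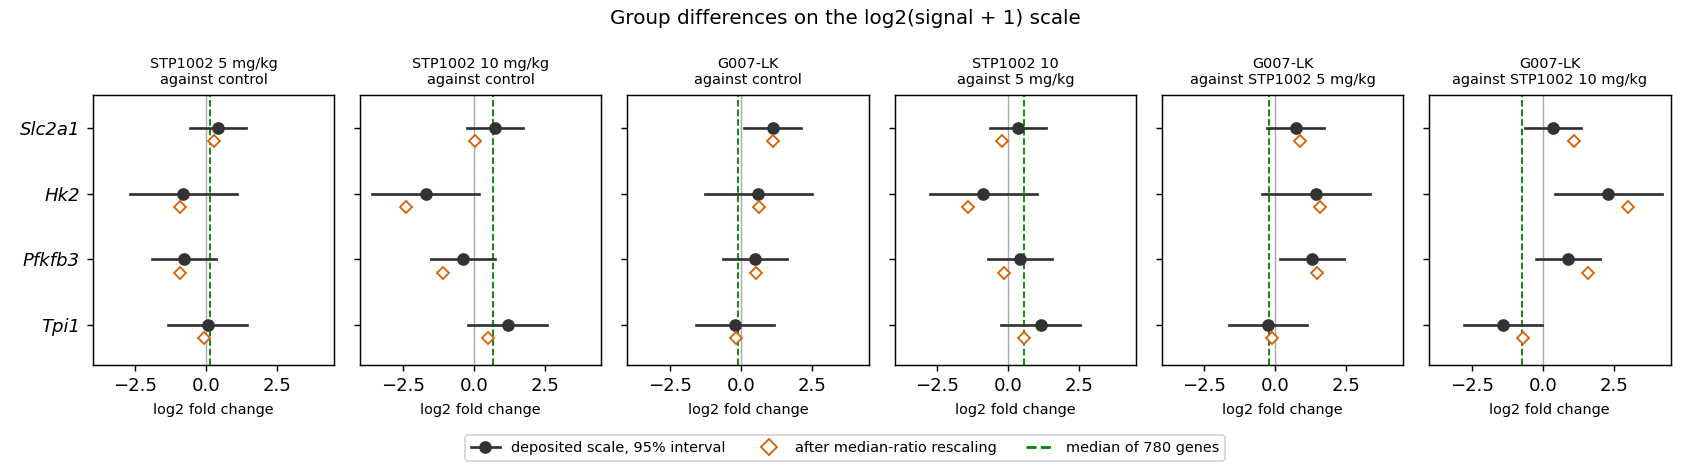
Log2 fold changes of the 4 genes in the 6 comparisons on the log2(signal + 1) scale; black points with bars are limma estimates with 95% intervals, open diamonds are the values after median-ratio rescaling and green dashed lines are the median of 780 genes. Intervals clear 0 for Slc2a1 with G007-LK against control, for Pfkfb3 with G007-LK against 5 mg/kg, and for Hk2 and Tpi1 with G007-LK against 10 mg/kg, before adjustment.

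Hk2 and Tpi1 ran in opposite directions across the mice. Over the 12 libraries Pearson's r of their log2(signal + 1) was -0.790 (permutation p = 0.00231, adjusted 0.0231) and Spearman's rho -0.790 (permutation p = 0.00319, adjusted 0.0319), with 10 relations in the family. Without the 2 mice with the most extreme Hk2, r was -0.894, and with group means removed it was -0.727. The relation was not particular to Tpi1, since Hk2 ran against most of the panel: its median r with 536 genes above background in all libraries was -0.651, and 14.5% of genes had a lower r with Hk2 than Tpi1 had. Tpi1 in turn ran with the panel, at a median r of 0.751. After median-ratio rescaling the r of Hk2 with Tpi1 was -0.704, and without the 2 deepest libraries it was -0.649.

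Hk2 and Pfkfb3 tended to be high in the same mice, with r = 0.651 (permutation p = 0.0229, adjusted 0.0708) and rho = 0.524 (permutation p = 0.0849, adjusted 0.323). Of 538 genes, 97.2% had a lower r with Hk2. The relation did not pass the adjustment. Slc2a1 had an r of 0.131 with Hk2, 0.318 with Pfkfb3 and -0.0521 with Tpi1, and Pfkfb3 had -0.512 with Tpi1. Their adjusted permutation p values ran from 0.154 to 0.873. The r of Slc2a1 depended on scale and libraries: it was 0.700 with Hk2, 0.741 with Pfkfb3 and -0.694 with Tpi1 on the rescaled values, and -0.181, -0.106 and 0.440 without the 2 deepest libraries. Other pairs depended on those 2 libraries too. Without them r was 0.424 for Hk2 with Pfkfb3 and 0.0044 for Pfkfb3 with Tpi1. Depth was compared with each member as well, and no such relation passed the adjustment. The r farthest from 0 with the log2 of the summed recovered counts were 0.654 for Pfkfb3 and -0.633 for Tpi1 (adjusted permutation p = 0.0708 for both). Their rho with depth was 0.4685 and -0.4336 (adjusted permutation p = 0.323 for both). Of 538 genes, 94.98% had a lower r with depth than Pfkfb3 had, and 30.86% a lower r than Tpi1 had. Without the 2 deepest libraries r with depth was 0.175 for Pfkfb3 and 0.123 for Tpi1. The part of depth in the levels of these genes was not tested further.

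**Figure D3:**
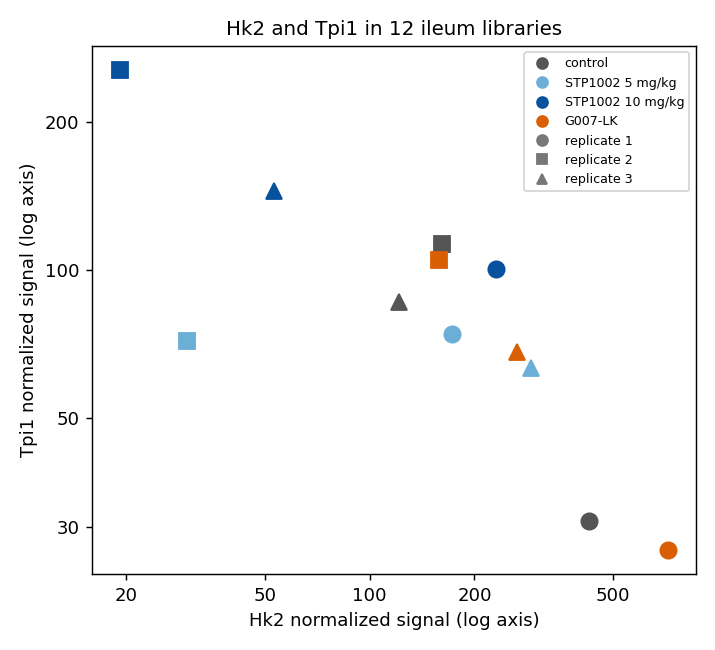
Normalized signal of Hk2 against Tpi1 (both log axes) in the 12 libraries; colours are groups and shapes are replicate numbers. Mice with high Hk2 had low Tpi1 (r = -0.790), from G007-LK replicate 1 (719 and 26.9) to STP1002 10 mg/kg replicate 2 (19.2 and 255).

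The genes whose pattern over the 12 libraries was most like each member were ranked by Pearson's r among 536 genes, as a description. For Slc2a1 they were Lcn2, a siderophore-binding defence protein (r = 0.888), Cd274, the immune checkpoint ligand PD-L1 (0.866), and Ifnar1, a type I interferon receptor chain (0.860). For Hk2 they were B2m, the light chain of MHC class I (0.873), the NAD-consuming ectoenzyme Cd38 (0.847) and the kinase Akt1 (0.841). Pfkfb3 was most like the basement membrane collagen Col4a2 (0.872), the cytokine receptor chain Il6st (0.834) and Col4a1 (0.755). Tpi1 was most like the T cell checkpoint receptor Pdcd1 (0.965), the GMP synthetase Gmps (0.964) and the B cell survival factor Tnfsf13b (0.959). These libraries share a panel-wide axis and differ in depth. The 3 genes of Pfkfb3 were the same without the 2 deepest libraries, whereas 0 of the 3 of Slc2a1 were. After median-ratio rescaling Mapk8 took the place of Col4a1 for Pfkfb3, and with group means removed Sf3b1 did. The lists of the other members changed in each of these settings.

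The panel also held 7 other genes of a list of 57 for glucose transport, glycolysis and the routes that branch from it. None of the 11 measured genes was called in any of the 6 comparisons. With G007-LK all 7 others had log2 fold changes below 0 against control, with a median of -0.73, while the median of all genes was -0.09. Not every mouse lay below the control mean. Relative to it, G6pdx stood at -2.31, 0.53 and -0.28 in G007-LK replicates 1 to 3, so its value rested on replicate 1. Pgk1 stood at 0.16 in replicate 3 and Pkm at 0.17 in replicate 2. The genes with the smallest p besides Slc2a1 were Pfkp and Aldoa. Pfkp, the platelet-type phosphofructokinase, averaged 572 ± 284 (SD, n = 3) in control mice and 222 ± 49.6 (n = 3) with G007-LK. Control replicate 1 stood at 891.5, and replicates 2 and 3 at 348 and 478. The log2 fold change of Pfkp was -1.27 ± 0.45 (limma adjusted p = 0.16). Pfkp passed with quantile normalization (-1.36, adjusted p = 0.0272) and with array weights (-0.79, adjusted p = 0.045). Its value was -0.90 without control replicate 1 (limma adjusted p = 0.405) and -0.70 without the 2 deepest libraries (0.918). Aldoa, the aldolase that makes the trioses used by Tpi1, averaged 7627 ± 2363 in control mice and 2620 ± 404 with G007-LK. Its log2 fold change was -1.50 ± 0.67 (limma adjusted p = 0.321), and it passed with array weights (-1.56, adjusted p = 0.0486). Without the 2 deepest libraries Aldoa was at -1.31 (limma adjusted p = 0.918). These 2 genes and lactate dehydrogenase Ldha (-0.91 ± 0.55, adjusted p = 0.546) were lower in all 3 treated mice than in any control, as was 7.95% of the panel. Of the 11 glucose genes 3 (Slc2a1, Hk2 and Pfkfb3) had values above 0 and 8 below, where 352 of all 780 genes were above 0 and 428 below. Without G007-LK replicate 1 the value was 0.81 for Slc2a1, 0.01 for Hk2, 0.08 for Pfkfb3 and 0.33 for Tpi1. With control replicate 1 left out as well, these were 0.83, 0.55, 0.25 and -0.22, in that order.

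The remaining 4 genes of that list did not differ beyond their spread either, and their estimates ran from near 0 to -0.73. The phosphoglycerate kinase Pgk1 had a log2 fold change of -0.04 ± 0.40 with G007-LK and the pyruvate kinase Pkm -0.09 ± 0.45. Pdk1, which restrains pyruvate entry into mitochondria, had -0.73 ± 0.82, and G6pdx, which opens the pentose phosphate pathway, -0.69 ± 0.76. Pdk1 lay near background, above it in 2 of 3 control mice and 1 of 3 with G007-LK. Its value is also the median of the 7 genes given above. With STP1002 at 10 mg/kg the median of the 7 genes was -0.15, and -0.85 after median-ratio rescaling, where all genes had 0.69 and 0.00. At 5 mg/kg it was -0.13 on the deposited scale.

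**Figure D4:**
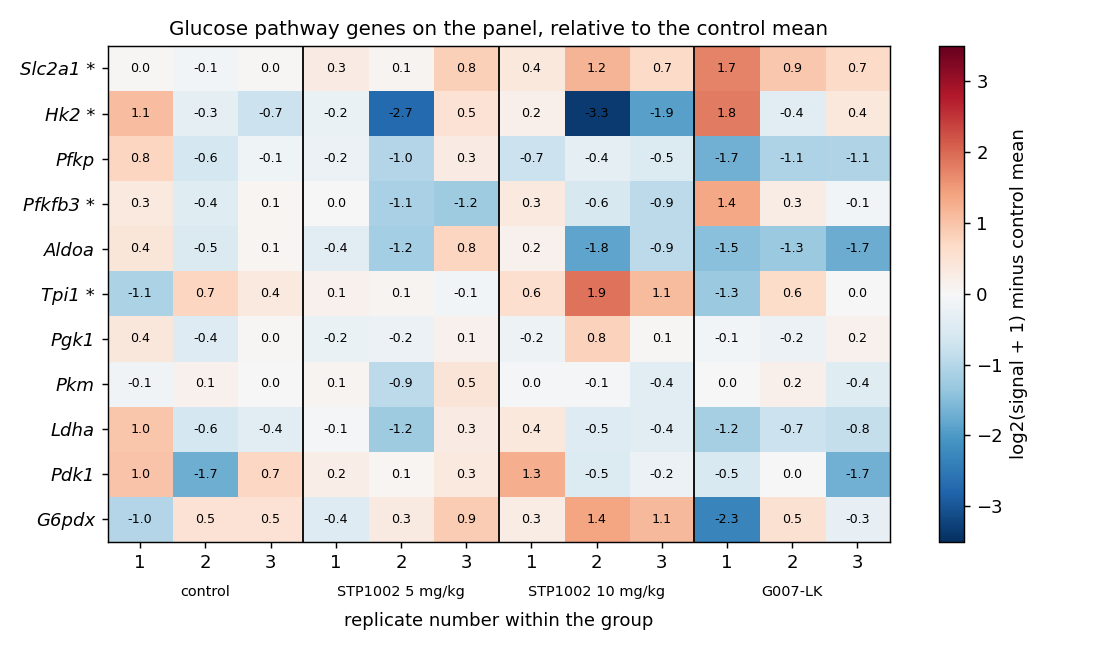
Log2(signal + 1) minus the control mean for the 11 glucose pathway genes on the panel (rows; asterisks mark the 4 members) in each of the 12 libraries (columns). With G007-LK Slc2a1 is above the control mean in all 3 mice and Pfkp, Aldoa and Ldha are below it in all 3; the columns of replicate 1 and replicate 2 differ within groups as well.

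Genes of the oxygen-sensing pathway that is known to drive these members were given by a list of 18, of which 8 were measured. With G007-LK against control 1 of the 8 was called higher and 1 lower, where 2.31% of the panel was called higher and 1.15% lower. Hif1a, the oxygen-regulated subunit of HIF-1, rose with G007-LK (log2 fold change 2.45 ± 0.65, limma adjusted p = 0.0459), from 118 ± 19.6 in control mice to 1118 ± 1383 (SD, n = 3 each) (2714 in replicate 1, 268 and 373 in the others). The call for Hif1a was fragile: without G007-LK replicate 1 the value was 1.42 (adjusted p = 0.2), without control replicates 1 to 3 in turn it was 2.35, 2.58 and 2.43 (adjusted p = 0.107, 0.1 and 0.132), and rescaling gave 2.48 (adjusted p = 0.186). Leaving out any STP1002 library kept the value at 2.45 and also ended the call (adjusted p from 0.0578 to 0.0744). Car9, a carbonic anhydrase induced by HIF-1, fell, with a log2 fold change of -4.48 ± 0.63 (limma adjusted p = 0.0008), and it passed under every alternative tried. Its signal was 459 to 787 in control mice and 14.5, 20.45 and 69.8 with G007-LK. The value in G007-LK replicate 2 lay below its background of 40.4, and with a common background floor the change was -3.69. With STP1002 at 10 mg/kg Car9 ranged from 234 to 379, below all controls, as was 2.82% of the panel. For G007-LK against control, Adm, a vasodilator peptide, had 0.54 ± 0.73 and the angiogenic factor Vegfa -0.56 ± 0.60, and neither passed. With array weights Vegfa passed, at -1.02 (limma adjusted p = 0.0364).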

How the data were processed

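RNA of 12 ileum samples was measured on the nCounter panel, whose probes, per the labels' protocols, cover 760 genes related to tumours and 20 housekeeping genes; samples had an RNA integrity number above 7.0. The authors deposited a normalized signal on a linear scale for 780 genes, with whole counts for 8 negative and 6 positive control probes. The software and reference genes of that normalization are not given in the sources used here. Of the symbols, 775 matched RefSeq by name and 2 by synonym, and 3 did not.

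The value of 1 reporter was found per library as the step that makes gene values whole multiples within 0.0051; this held for 98.7% to 100% of genes. Replicates differed by more than counting error (chi-square per degree of freedom 3.21 to 129). The labels do not say that replicates were processed separately. Limma 3.58.1 (R 4.3.3) was fitted to log2(signal + 1) of all 780 genes, with 4 group means over 12 libraries, a mean-variance trend and Benjamini-Hochberg adjustment over the genes of each of 6 comparisons, and was tested on simulated data. No gene was filtered out. Correlations used 100000 permutations. Poisson intervals of single values cover counting error only, while the limma intervals rest on the spread between libraries.

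The members, lists and tests were chosen with earlier results of these data known. Named genes are the 4 members; measured glucose pathway genes that were called, or else the 3 with the smallest p for G007-LK against control; the 3 genes most like each member; and Hif1a, Car9, Adm and Vegfa. Ldha, the rest of the glucose list and the genes separated in all treated mice were named after values were seen.

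Same-numbered replicates deviated together in 15 of 18 pairs of libraries (r over 0.1; range 0.011 to 0.776). This was not particular to equal numbers, since replicates 2 and 3 of different groups also had positive r. Control replicate 3 had 0.567 with STP1002 10 mg/kg replicate 2, above 0.159 with replicate 3 of that group. Replicate 1 had negative r with replicates 2 and 3 of the other groups. All 3 same-numbered pairs had r over 0.1 in 3 of the 6 comparisons: STP1002 10 mg/kg against control, G007-LK against control and G007-LK against STP1002 10 mg/kg. Alternatives tried were another pseudocount, a low-value filter, other scalings, a background floor, array weights, fewer groups, the replicate block and each library left out.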

Additional observations from a re-analysis of the deposited data

How the results depend on the processing

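Over the alternatives, 191 values of a member kept their direction and side of the threshold with another setting, 12 came to pass and 13 turned sign; with 1 library left out 283 kept both and 5 turned sign. Counts of called genes moved as follows. With median-ratio rescaling 14 genes were called for G007-LK against control, 6 for G007-LK against STP1002 5 mg/kg and 12 by the F test. A common background floor gave 7, 10, 2 (against STP1002 10 mg/kg) and 1. Fits of only the groups compared gave 2 for STP1002 10 mg/kg, 15 for G007-LK against control and 1 against STP1002 5 mg/kg. Without the 2 deepest libraries 3 and 5 genes were called for the 5 and 10 mg/kg doses against control, 34 and 38 for G007-LK against them and 39 by the F test. The replicate block gave 63 for G007-LK against control, 61 and 260 against the 5 and 10 mg/kg doses and 110 by the F test; against the 10 mg/kg dose Hk2 (2.30) and Tpi1 (-1.40) passed, and it changed no other call of a member. Array weights, whose estimate did not converge, gave 17, 283 and 160 genes against control for 5 mg/kg, 10 mg/kg and G007-LK, 388 between the doses, 126 and 491 for G007-LK against them and 625 by the F test. With these weights all 4 members passed for 10 mg/kg against control (Slc2a1 0.69, Hk2 -1.40, Pfkfb3 -0.82, Tpi1 0.66), Tpi1 between the doses (1.03), Hk2 for G007-LK against 5 mg/kg (1.47), and Hk2 (2.22), Pfkfb3 (0.88) and Tpi1 (-1.02) against 10 mg/kg. Hk2 passed there without the 2 deepest libraries too (1.70).

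Signs turned as follows, and the cause was not tested. Tpi1 at 5 mg/kg against control was -0.072 with median-ratio rescaling, -0.19 with quantile normalization, -0.078 with a floor, -0.37 with array weights and -0.50 without the 2 deepest libraries. Between the doses Slc2a1 was -0.23 and Pfkfb3 -0.16 with median-ratio rescaling, -0.36 and -0.23 with quantile normalization, and Pfkfb3 -0.14 with array weights. Tpi1 for G007-LK against 5 mg/kg was 0.058 with quantile normalization, 0.012 with array weights and 0.28 without the 2 deepest libraries. With 1 library left out, counts ranged from 16 to 47 for G007-LK against control, 7 to 33 and 3 to 53 against the 5 and 10 mg/kg doses and 9 to 29 by the F test. Log2 fold changes ranged from -1.48 to 0.14 for Hk2 at 5 mg/kg, and for Tpi1 from -0.50 to 0.42 at 5 mg/kg, -0.76 to 0.33 for G007-LK and -0.68 to 0.28 for G007-LK against 5 mg/kg. Adm for G007-LK against control was -0.068 without control replicate 1. Quantile normalization split the G007-LK calls into 15 higher and 14 lower against control (18 and 9 as deposited) and 9 and 10 against 5 mg/kg (14 and 8). The call for Hif1a was also lost with quantile normalization, a floor, only the groups compared and without the 2 deepest libraries, while Pfkp (quantile normalization, array weights), Aldoa and Vegfa (array weights) gained one. edgeR and DESeq2, planned as alternatives, were not run, since the deposited values are not counts and a count per value could not be recovered to the standard set for such tests in every library. Groups of 3 mice and low counts limit what differences could be detected. Several Hk2, Slc2a1 and Tpi1 values rest on 10 to 31 reporters, and Pfkfb3 in STP1002 5 mg/kg replicate 3 rests on 18.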
